A study of Mus musculus with 48 samples.

Results

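Prostaglandin synthesis, transport and reception were followed through 7 genes in mouse skull bone cells given cytokines of the interleukin 6 family: Ptgs1, Ptgs2, Ptges, Ptgis, Ptger2, Ptger4 and Slco2a1. Each gene was read from its brightest detected bead-array probe, so the probes were selected on mean brightness and detection and not on a comparison between groups. The genes themselves were chosen with earlier results of these data known. The p-values and ranks below do not account for that choice. Of the 7 genes, 6 had a named probe in the supplied annotation and 4 had a probe above background on at least 3 arrays, out of 10739 genes tested. The 4 tested genes were Ptgs2, Ptges, Ptgis and Slco2a1. Just inside that minimum lay Ptgs2, above background on 8 arrays, and just outside it Ptger4, on 1. Ptgs1, which encodes cyclooxygenase 1, had no named probe and was not analysed here.

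Prostaglandins are short-lived lipid signals. Cyclooxygenases (Ptgs1, Ptgs2) turn arachidonic acid into prostaglandin H2, from which the microsomal synthase Ptges makes prostaglandin E2 and the synthase Ptgis makes prostacyclin. Slco2a1 encodes a membrane transporter that takes prostaglandins up from outside the cell, and Ptger2 and Ptger4 encode receptors for prostaglandin E2 that raise cyclic AMP. In bone, osteoblasts are a main source of prostaglandin E2, which acts on bone formation and, through osteoblasts, on the formation of osteoclasts.

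The cells were primary calvarial osteoblasts of C57BL/6 mice, either wild type (WT) or with the gene of the oncostatin M receptor, Osmr, knocked out (KO), differentiated for 17 days. They were left untreated (control) or given 10 ng/ml of oncostatin M of the mouse (mOSM) or of human sequence (hOSM), or of leukemia inhibitory factor (mLIF), for 1 h or 6 h, which makes 16 groups of 3 arrays, 48 in all. Per the design text, hOSM and LIF reach mouse cells through the LIF receptor (LIFR) alone, whereas mOSM can use the OSM receptor as well. The sample titles and the design text call the LIF mouse, the treatment protocol calls it human. The loss of Osmr is not tied to a cell type in the labels, and they do not say that each culture had its own animals, so p-values measure the spread between these cultures, which may be technical.

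On the arrays Osmr averaged 7.36 ± 0.74 in KO and 10.68 ± 0.80 in WT (log2 intensity, SD, n = 24 each), with no overlap. Median signals ran from 116.3 to 169.8 between arrays. Deviations from group means correlated between arrays that share genotype and number (mean r 0.659, lowest 0.302), and each such number is called a culture here. KO culture 3 stood apart on the first principal component, which held 29.6% of the variance (mean 60.7, the other cultures −17.7 to −0.1). Replicates 1 and 2 were thawed on one day and replicate 3 on another, per the labels, while the design text speaks of 3 occasions. The labels name the cells osteocytes as well as osteoblasts. Of the 8 osteoblast markers with a probe, Col1a1, Col1a2, Alpl, Sp7 and Pth1r were above background on all 48 arrays, Bglap on 43, Ibsp on 33 and Bmp2 on 1. Of 8 osteocyte markers, Phex, Pdpn, Ank and Cd44 were above background on all 48, Mepe on 12, Dmp1 on 7, and Sost and Fgf23 on 0. Markers of other cell types were also above background on all 48: the chondrocyte markers Col2a1, Sox9 and Comp, 3 of 6 listed. So were Pparg, 1 of 7 adipocyte markers, and Cd14, Lyz2 and Ctsk, 3 of 12 listed macrophage and osteoclast markers. On 0 arrays were the chondrocyte marker Col10a1 and, of the macrophage and osteoclast list, Ptprc, Itgam, Acp5 and Calcr. Between these lay Csf1r on 45 arrays, Adgre1 on 28 and Tyrobp on 18, and the chondrocyte markers Matn1 on 21 and Acan on 16. Of the adipocyte list Cebpa was on 46, Adipoq and Lep on 40, Plin1 on 14, Fabp4 on 6 and Cd36 on 5. The fibroblast and periosteum markers Dpt, Pdgfra and Thy1 were on all 48 and Postn on 47. Of the muscle markers Acta1 was on 42, Des on 39, Myog on 2, and Myod1 and Ckm on 0. In bulk RNA, fewer cells of a type and less RNA per cell cannot be told apart.

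Slco2a1 and Ptges carried the differences described below, and the 250 bases before their annotated start are shown for these reasons only (RefSeq, GRCm38.p6, 5′ to 3′ in the direction of the gene). Capitals mark GC boxes (GGGCGGG on either strand) and the TATA box (TATAAA on either strand). Ptges lies at chr2:30903298-30903547 on the minus strand and Slco2a1 at chr9:103008237-103008486 on the plus strand.
Ptges promoter: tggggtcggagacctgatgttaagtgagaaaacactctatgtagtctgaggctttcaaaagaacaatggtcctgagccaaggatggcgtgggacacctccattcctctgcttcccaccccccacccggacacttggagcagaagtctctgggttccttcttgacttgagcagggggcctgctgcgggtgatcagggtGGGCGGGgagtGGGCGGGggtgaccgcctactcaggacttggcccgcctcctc
Slco2a1 promoter: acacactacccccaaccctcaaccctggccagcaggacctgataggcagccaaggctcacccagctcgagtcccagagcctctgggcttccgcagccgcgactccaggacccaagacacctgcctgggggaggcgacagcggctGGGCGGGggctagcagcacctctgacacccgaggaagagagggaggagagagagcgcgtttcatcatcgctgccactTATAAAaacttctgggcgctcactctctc
Ptges held 2 GC boxes and no TATA box, Slco2a1 held 1 of each, the TATA box beginning 29 bases before the start. Of 32851 promoter windows of this length, 23.4% held the GC box and 12.4% the TATA box. The palindrome bound by STAT factors (TTCNNNGAA, its own complement apart from the free letters), found in 7.02% of windows, the C/EBP palindrome TTGCGCAA (0.164%) and the letters ACGTCA on either strand, part of the cyclic AMP response element (6.47%), were not in either window. None of these matches was tested as a binding site.

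The prostaglandin transporter gene Slco2a1 rose with mOSM at 6 h in WT cultures and in no other ligand group. WT controls at 6 h read 7.25, 7.55 and 7.24 (log2 intensity in cultures 1 to 3), and WT cultures given mOSM read 8.84, 9.46 and 8.85. Every mOSM array lay above every control array. The difference was 1.70 ± 0.26 on the log2 scale (SE, 3.25-fold, limma adjusted p = 3.8e-06), positive in all 3 cultures (1.59, 1.91 and 1.61). It was 1.75 on the first thaw day, 1.61 on the second, and 1.59 within the 1 beadchip that held both groups. At 1 h the same ligand gave 0.08 ± 0.26 (adjusted p = 1), and the change of the mOSM effect from 1 h to 6 h passed in itself (1.62 ± 0.36, adjusted p = 0.0022). The 3 arrays of WT mOSM at 1 h, from 6.87 to 7.13, lay within the range of the 1 h controls, from 6.48 to 7.15.

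Markers of other cell types and stages moved in the same comparison, WT mOSM against control at 6 h. Of 6 tested osteocyte markers 3 were called higher. The mean log2 level of all 6 ran from 8.87 to 9.09 in controls and from 9.40 to 9.74 with mOSM, without overlap. Of the other lists, 1 of 6 tested macrophage and osteoclast markers and 1 of 4 fibroblast and periosteum markers were called higher. Called lower were 1 of 7 osteoblast, 1 of 7 adipocyte and 1 of 5 chondrocyte markers. In this comparison 27.5% of all genes were called, so these counts by themselves do not show a shift of cell types. The part of these shifts in the Slco2a1 and Ptges results was not tested.

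The ligands that act through LIFR left Slco2a1 near its control level at 6 h in WT. With hOSM the arrays read 7.11, 7.30 and 6.99, and with mLIF 6.98, 7.48 and 7.35. The differences from control were −0.22 (95% interval −0.74 to 0.30) and −0.08 (−0.60 to 0.44), neither of which passed. mOSM exceeded the mean of hOSM and mLIF by 1.85 ± 0.22 (adjusted p = 1.2e-07), and hOSM and mLIF differed by −0.13 (−0.65 to 0.39, adjusted p = 1).

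**Figure D1:**
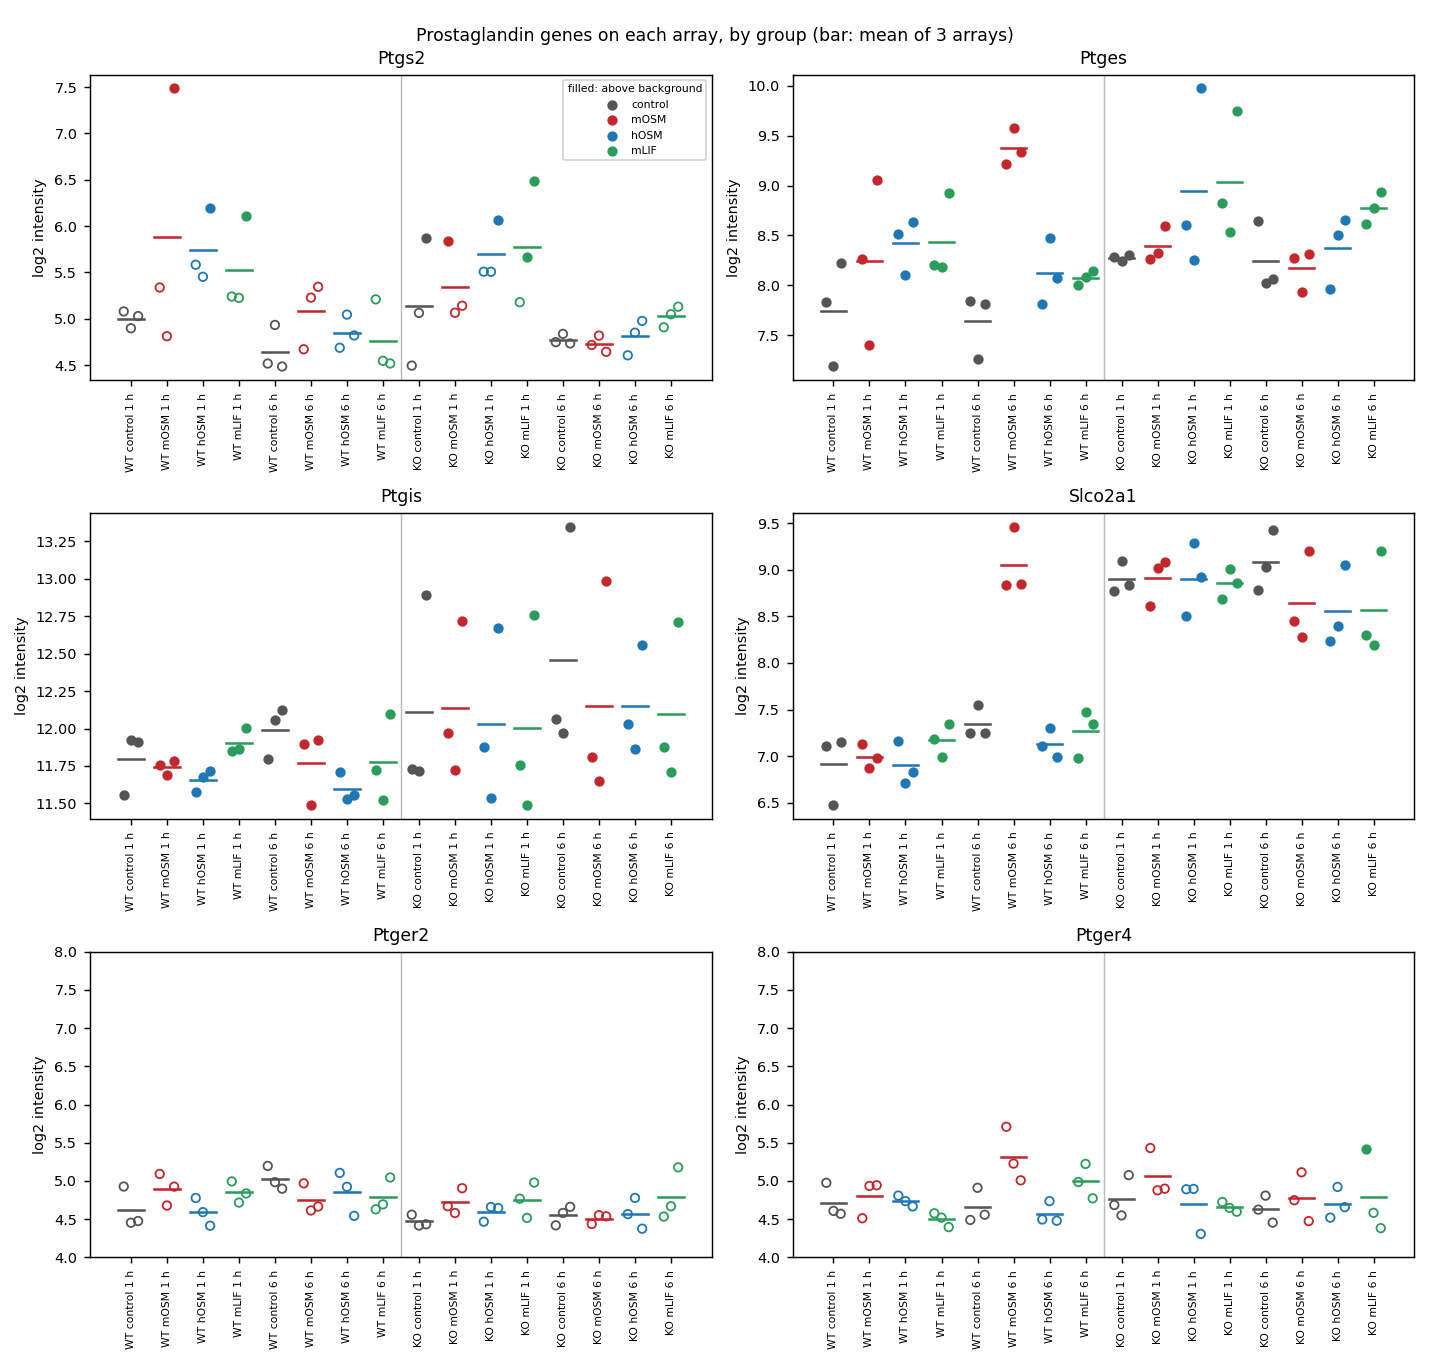
Log2 intensity on each of the 48 arrays for the 6 prostaglandin genes with a named probe, by genotype, ligand and time. Filled points are above background (detection p under 0.01), open points are not, and bars are means of 3 arrays. Slco2a1 shows 2 levels, with all KO arrays from 8.20 to 9.43 and the WT arrays outside WT mOSM at 6 h from 6.48 to 7.55.

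In KO cultures Slco2a1 was high before any ligand. KO controls read 8.78, 9.09 and 8.84 at 1 h against 7.11, 6.48 and 7.15 in WT controls, and 8.78, 9.03 and 9.43 at 6 h against 7.25, 7.55 and 7.24. No KO control array overlapped a WT control array at either time. The difference was 1.99 ± 0.26 at 1 h (3.97-fold, limma adjusted p = 4.4e-05) and 1.73 ± 0.26 at 6 h (3.32-fold, adjusted p = 0.00043). It was the 1 member of 4 called at either time, where 0.0186% of all genes were called at 1 h and 0.0279% at 6 h. By p-value Slco2a1 stood first of 10739 genes at 1 h, ahead of Osmr itself, and second to Osmr at 6 h, with Pgm5 (−0.97 ± 0.19, adjusted p = 0.037) the only other gene called. The Pgm5 call was lost on leaving out any single control array at 6 h (adjusted p up to 0.44). It was also lost with the culture term (adjusted p = 0.056) and the beadchip term (adjusted p = 0.89). Each culture held 1 genotype, so genotype and the origin of a culture cannot be told apart beyond the spread of 3 cultures each.

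The genotype difference of Slco2a1 lost its call when the spread was estimated from the compared groups alone (adjusted p = 0.26 at 1 h and 0.6 at 6 h, with the size unchanged). In that run Osmr also lost its call at 1 h (adjusted p = 0.24) and kept it at 6 h. The log2 difference of Slco2a1 was 2.14 and 1.69 on the first and second thaw day at 1 h, and 1.50 and 2.18 at 6 h. Over culture means of the controls, KO cultures ran from 8.78 to 9.13 and WT cultures from 7.01 to 7.20, for which p = 0.1 in a two-sided exact permutation test, the lowest value possible with 3 against 3 cultures. Of the 2 other detected probes for Slco2a1, ILMN_2961221 gave 1.60 at 1 h and 1.54 at 6 h (adjusted p = 0.034 and 0.049 over the 16799 probes tested), and ILMN_2433848 gave 1.91 and 1.31 (adjusted p = 0.038 and 0.93). Endothelial cells also express Slco2a1: of 7 endothelial markers, Pecam1, Cdh5, Emcn, Tie1 and Vwf were above background on 0 of 48 arrays, Kdr on 11 and Tek on 48. The mean log2 level of the 2 tested endothelial markers ran from 6.05 to 6.94 in WT controls and from 5.61 to 7.58 in KO controls, and 0 of them were called between the genotypes.

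In KO cultures Slco2a1 was not called with mOSM at 6 h. The 3 arrays read 8.45, 8.28 and 9.20, each below the control of its own culture, a difference of −0.44 (95% interval −0.96 to 0.08, adjusted p = 1). hOSM and mLIF gave −0.52 and −0.51, also below control in all 3 cultures and not past the threshold (adjusted p = 0.64 and 0.58). The mOSM effect was lower in KO than in WT by 2.14 on the log2 scale (−2.14 ± 0.36, adjusted p = 0.00012). WT cultures with mOSM reached 8.84 to 9.46, the range of the untreated KO controls at that time (8.78 to 9.43), so the interaction compares a rise from a low level with no rise from a high one. The 2 other detected probes gave −1.82 and −1.71 for this interaction (adjusted p = 0.025 and 0.0087).

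Over the 16 groups, the mean level of Slco2a1 fell into 9 groups from 8.56 to 9.08 and 7 from 6.90 to 7.35. The upper 9 were the 8 KO groups and WT mOSM at 6 h. The gap of 1.21 between KO hOSM at 6 h and WT control at 6 h exceeded the larger SD of the pair, 0.43, and no other gap between neighbours did.

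Ptges, the inducible prostaglandin E2 synthase, rose with mOSM at 6 h in WT cultures by a like amount. WT controls read 7.84, 7.26 and 7.81, and mOSM arrays 9.21, 9.58 and 9.34, with no overlap. The difference was 1.73 ± 0.35 (3.33-fold, limma adjusted p = 0.00023), positive in all 3 cultures (1.37, 2.31 and 1.52), and mOSM exceeded the mean of the LIFR ligands by 1.28 ± 0.30 (adjusted p = 0.0019). It was 1.84 on the first thaw day and 1.52 on the second, and 2.13 within the 1 beadchip with both groups. The second detected probe gave 1.13 ± 0.34 (adjusted p = 0.013).

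hOSM and mLIF gave smaller Ptges differences at 6 h in WT. Their arrays read 7.82, 8.47 and 8.08 with hOSM and 8.01, 8.08 and 8.14 with mLIF, against 9.21 and above with mOSM. The differences from control, 0.48 (95% interval −0.23 to 1.19) and 0.44 (−0.27 to 1.14), did not pass (adjusted p = 0.93 and 1). hOSM and mLIF differed from each other by 0.05 (−0.66 to 0.75).

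At 1 h the Ptges differences from control ran from 0.49 to 0.69 in WT and from 0.12 to 0.76 in KO, and none of the 6 passed in limma (adjusted p = 1 for each, with an unadjusted p under 0.05 for KO mLIF alone). In KO culture 3 the 1 h arrays read 9.97 with hOSM and 9.75 with mLIF, against 8.30 in the control and 8.60 with mOSM. The change of the WT mOSM effect from 1 h to 6 h, 1.24 ± 0.49, did not pass (adjusted p = 0.097), but did with the culture as a term (adjusted p = 0.022), with the first thaw day alone (1.52, adjusted p = 0.021), without KO culture 3 (adjusted p = 0.036), and without WT control 1 h replicate 2 (1.52) or WT mOSM 1 h replicate 3 (1.65).

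In KO cultures Ptges stayed near its control with mOSM at 6 h, at 8.28, 7.94 and 8.31 against 8.65, 8.02 and 8.07, a difference of −0.07 (95% interval −0.78 to 0.64). The mOSM effect was lower in KO by 1.81 (−1.81 ± 0.49, adjusted p = 0.015). Without KO control 6 h replicate 1 this became −1.60 (adjusted p = 0.052), and the second probe gave −1.25 (adjusted p = 0.11), so the call depended on that array and on the probe. KO hOSM and mLIF at 6 h gave 0.13 and 0.53 (adjusted p = 1 and 0.78). KO controls exceeded WT controls by 0.53 at 1 h and 0.61 at 6 h without overlap, and neither passed (adjusted p = 1 at both times).

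**Figure D2:**
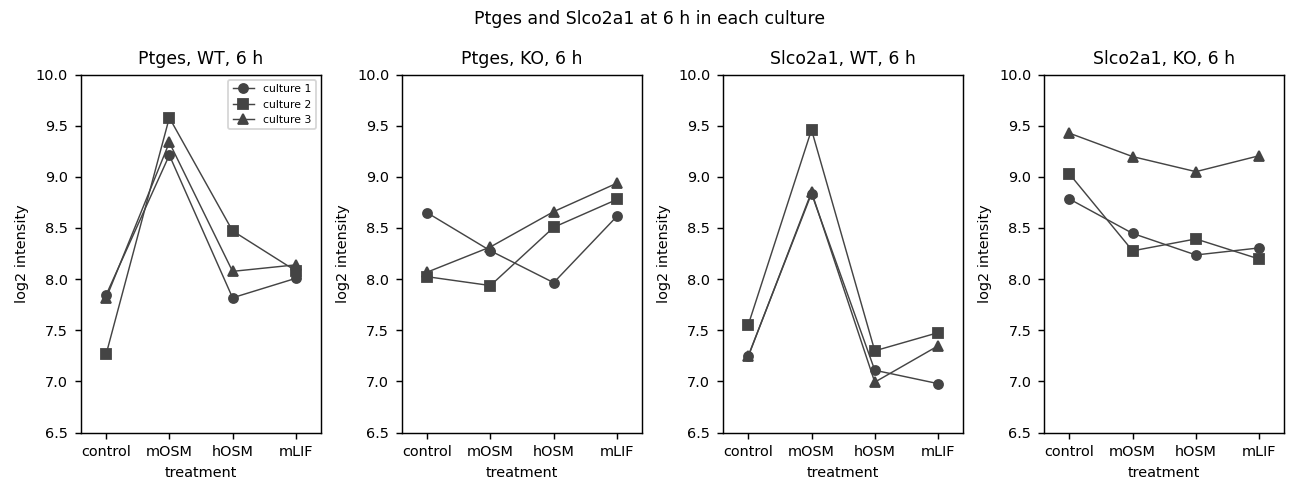
Log2 intensity of Ptges and Slco2a1 at 6 h in each of the 3 cultures per genotype, with lines joining arrays of one culture. In WT each of the 3 lines is highest at mOSM for both genes. In KO, Slco2a1 starts at 8.78 to 9.43 in the controls and Ptges at 8.02 to 8.65.

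In all, 2 of the 4 tested genes were called in WT mOSM at 6 h, where 27.5% of all genes were called (45.2% with the culture as a term). For mOSM against the LIFR ligands in WT at 6 h 2 of 4 were called, against 21.2% (38% with the culture term), and for the interaction 2 of 4 against 9.7% (26.3%). The time change of the WT mOSM effect called 1 of 4 against 13% (30.4%). Shares of this size in so few genes say nothing about prostaglandin genes as a set.

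Ptgis, the prostacyclin synthase, was the brightest of the 4 genes and was not called with any ligand. Its arrays ran from 11.49 to 13.35. The 12 differences of a ligand from its control ran from −0.39 to 0.11 (SE 0.36 each), 10 of them below 0, and 0 passed in limma (lowest adjusted p = 0.71). Their 95% intervals reached from −1.12 to 0.84. KO culture 3 read higher than the other KO cultures in each of the 8 groups, by 0.69 against the group means on average, and KO controls exceeded WT controls by 0.31 and 0.47 (neither passed).

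Ptgs2, the inducible cyclooxygenase, was near the lower limit of the arrays. Its brightest probe was above background on 8 of 48 arrays, all at 1 h, and its second probe on 0. At 1 h the WT controls read 5.08, 4.90 and 5.03, mOSM 5.34, 4.81 and 7.49, hOSM 5.58, 5.45 and 6.20, and mLIF 5.24, 5.23 and 6.11. Above background were the culture 3 arrays of each ligand, and no control array. The controls were all below background and each ligand group had only 1 of 3 arrays above it, so no fold is given. In culture 2 the mOSM array, at 4.81, read below its control, at 4.90.

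None of the 12 Ptgs2 differences from control passed in limma (lowest adjusted p = 0.47), where 1 had an unadjusted p under 0.05. At 6 h all 24 arrays lay below background, from 4.48 to 5.34, so no fold is given there. In KO at 1 h, 5 of the 12 arrays were above background, among them 1 control array at 5.87.

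The prostaglandin E2 receptor genes Ptger2 and Ptger4 could not be measured at this signal. Both Ptger2 probes were above background on 0 of 48 arrays, and the brighter one read from 4.38 to 5.20. The brighter Ptger4 probe was above background on 1 array, a KO mLIF 6 h array at 5.42. In WT at 6 h it read 5.71, 5.23 and 5.01 with mOSM and 4.49, 4.91 and 4.56 in controls, all 6 arrays below background, so these differences carry no fold. A transcript below this limit was not detectable here, and its absence was not shown.

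**Figure D3:**
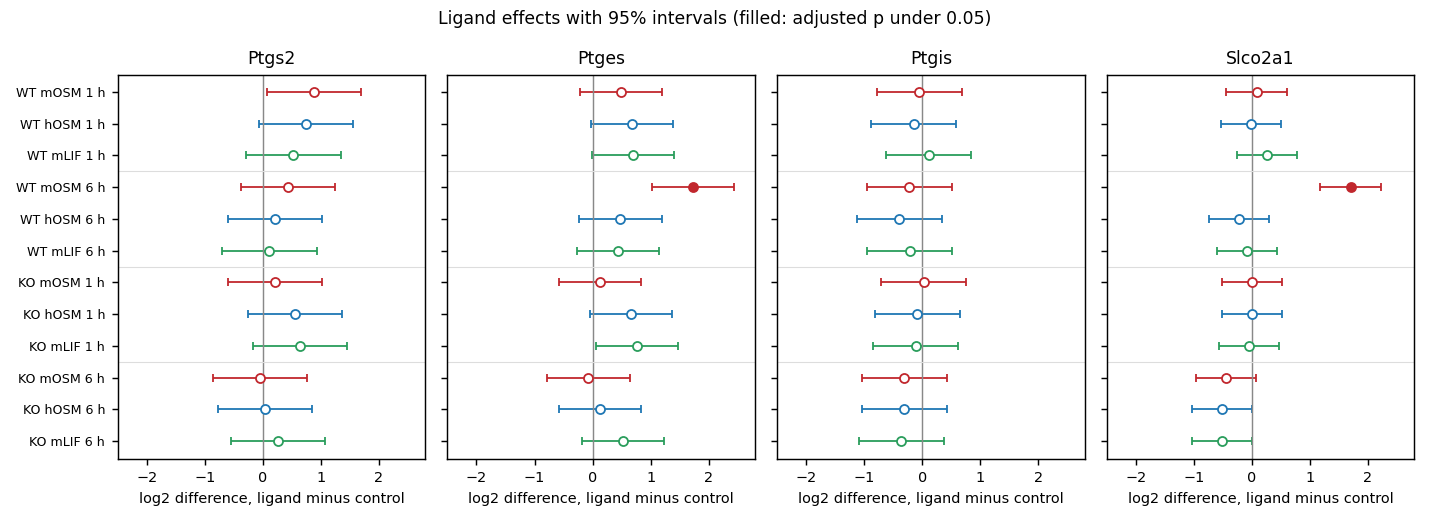
Differences of each ligand from its control (log2, points) with 95% intervals for the 4 tested genes, in WT and KO at 1 h and 6 h. Filled points had an adjusted p under 0.05, which were WT mOSM at 6 h for Ptges (1.73) and Slco2a1 (1.70). The Ptgs2 points rest on a probe above background on 8 of 48 arrays and are not sizes of change.

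In the other 26 of the 32 comparisons limma called 0 of the 4 genes, and 3 of these 104 differences had an unadjusted p under 0.05 (Ptgs2 with WT mOSM and Ptges with KO mLIF at 1 h, Slco2a1 with KO hOSM at 6 h). The shares of all genes called there were 0.745% for WT mOSM at 1 h, 0.466% to 0.624% for the LIFR ligands in WT at 1 h, and 0.466% to 0.661% at 6 h. In KO they were 0.00931% for mOSM at 1 h, 0% for mOSM at 6 h, 0.4% to 0.428% for the LIFR ligands at 1 h and 0.829% to 0.922% at 6 h. hOSM against mLIF called 0 of 4 genes and 0% of all genes in each of 4 comparisons. mOSM against the LIFR ligands called 0% of genes in WT at 1 h, 0.307% in KO at 1 h and 0.447% in KO at 6 h. The genotype difference called 0.0745% of genes for mOSM at 1 h and 0% for hOSM and mLIF at both times, and the time change of the KO mOSM effect 0%. Control arrays at 6 h against 1 h also called 0 of 4, where 0.428% of genes were called in WT and 0.279% in KO, and Slco2a1 gave 0.44 ± 0.26 in WT (adjusted p = 1) with the 6 h arrays above the 1 h arrays.

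Of 40 other genes of arachidonate and prostanoid metabolism, chosen with earlier results known, 35 had a probe and 24 were tested. With mOSM at 6 h in WT, 1 was called higher and 5 lower (median −0.06, all genes −0.08), 6 of 24 where 27.5% of all genes were called. With the culture term it was 5 and 7, where 45.2% were. The cytosolic prostaglandin E synthase Ptges3 rose (0.87 ± 0.27, adjusted p = 0.014) with arrays of 10.21, 10.34 and 10.46 against 8.94, 10.02 and 9.45 in controls. It did not pass with the beadchip as a term (0.48, adjusted p = 0.095) or without WT control 6 h replicate 1 (0.60, adjusted p = 0.14).

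Tbxa2r, the thromboxane receptor gene, fell furthest of the list. WT controls at 6 h read 8.27, 7.09 and 7.81 and mOSM arrays 4.80, 4.55 and 4.78, none of them above background. It was at least 4.09-fold lower with mOSM (difference −3.01 ± 0.75, adjusted p = 0.0022), and at 1 h it read 8.05, 7.03 and 7.56 with mOSM against 7.95, 6.84 and 7.56 in controls. In KO culture 3 Tbxa2r was low already in the 1 h control, at 5.45, and in its mOSM array, at 4.95, against 7.59 and 7.95 in the other KO controls.

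Faah, which breaks down the lipid anandamide, fell by 1.22 on the log2 scale (adjusted p = 0.0033), and Cbr1, a carbonyl reductase that can act on prostaglandin E2, fell by 0.82 (adjusted p = 0.0098). Without WT mOSM 6 h replicate 2 the Faah fall was −0.85 (adjusted p = 0.061), and without replicate 1 that of Cbr1 −0.64 (adjusted p = 0.079). The other called genes of the list, named after their values were seen, were Ptgr2, a prostaglandin reductase (−0.59, adjusted p = 0.023), and the phospholipase Pla2g12a (−0.43, adjusted p = 0.039). Both lost their call on the first thaw day alone (adjusted p = 0.088 and 0.13). Hpgd, which inactivates prostaglandin E2, had −0.81 ± 0.79 (adjusted p = 0.5, and 0.011 once culture was modelled), and Ptgfr, the prostaglandin F receptor gene, had 1.37 ± 0.60 (adjusted p = 0.086, and 1e-04 in that model).

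Against the LIFR ligands at 6 h in WT, Tbxa2r (−2.22 ± 0.65, adjusted p = 0.011) and Ptgr2 (−0.58 ± 0.17, adjusted p = 0.014) were called lower with mOSM, 2 of 24 where 21.2% of all genes were called. With arrays raised to the background floor Tbxa2r gave −1.24 (adjusted p = 0.15). In the other 11 comparisons of a ligand with its control 0 of the 24 genes were called in limma, with 0 to 1 at an unadjusted p under 0.05. The genotype difference of the mOSM effect at 6 h also called 0, where 9.7% of all genes were called (4 of the list at an unadjusted p under 0.05), and with the culture term 5 toward higher and 1 toward lower values in KO. In the time change of the WT mOSM effect Ptges3 was called higher (1.22 ± 0.38, adjusted p = 0.028) and Tbxa2r lower (−3.11 ± 1.06, adjusted p = 0.046), and both lost the call with the beadchip as a term (adjusted p = 0.3 and 0.17).

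**Figure D4:**
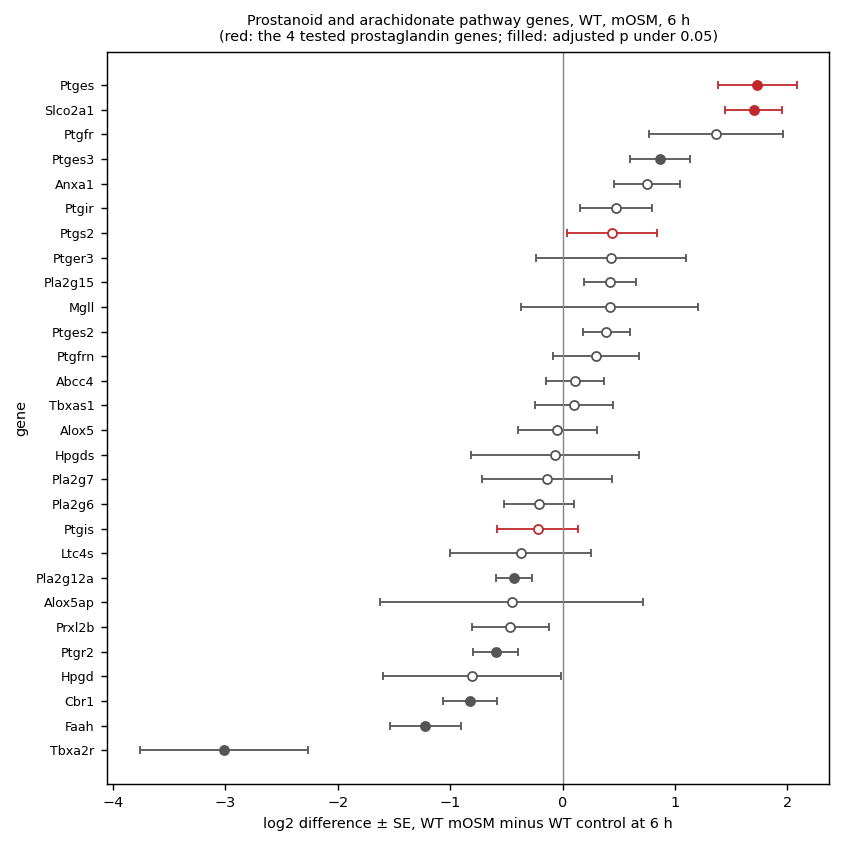
Log2 differences (mOSM minus control, WT, 6 h) with SE for the 24 tested pathway genes (grey) and the 4 tested prostaglandin genes (red), 3 arrays per group. Filled points had an adjusted p under 0.05. Ptges and Slco2a1 are highest and Tbxa2r is lowest.

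Genes that cyclic AMP induces, the route of Ptger2 and Ptger4, were read from 15 genes chosen in the same way, of which 14 had a probe and 13 were tested. With mOSM at 6 h in WT, the transcription factor gene Fos (2.52 ± 0.65, adjusted p = 0.0031), Pde4b and Dusp1 rose, and Ppargc1a, named after its values were seen, was called lower, while the other 9 did not pass. These 4 of 13 stand against 27.5% of all genes called. Pde4b (1.53 ± 0.55, adjusted p = 0.033) and Dusp1 (1.31 ± 0.45, adjusted p = 0.027) lost their calls without single arrays of these groups (adjusted p up to 0.13 and 0.082), while Ppargc1a, not above background on any mOSM array, was at least 1.03-fold lower and lost its call with arrays raised to the floor (adjusted p = 0.88). For mOSM against the LIFR ligands at 6 h in WT, 3 of 13 were called higher and 1 lower, where 21.2% of all genes were called. At 1 h Pde4b, a phosphodiesterase that cyclic AMP and many cytokines induce, rose with each ligand in WT. In KO it rose with hOSM (3.97 ± 0.55, adjusted p = 3.2e-05) and mLIF (4.43 ± 0.55, adjusted p = 3.1e-06). The WT calls of Pde4b for hOSM and mLIF were lost with the compared groups alone (adjusted p = 0.17 and 0.09). With mLIF at 1 h in KO, Fos was also called (2.74 ± 0.65, adjusted p = 0.04), a call lost with the compared groups alone (adjusted p = 1). At 1 h 1 of 13 genes was called for each ligand in WT and for hOSM in KO, and 2 for mLIF in KO. The shares of all genes called there were 0.466% to 0.745% in WT and 0.4% to 0.428% in KO. With hOSM at 6 h in KO Ppargc1a was also called lower (adjusted p = 0.045), 1 of 13 against 0.829% of all genes. None of those hOSM arrays was above background, the fall was at least 1.07-fold, and the call was lost with arrays raised to the floor. In untreated controls Fos, Dusp1 and Per1 were lower at 6 h than at 1 h, by log2 differences of −4.34, −2.75 and −2.03 in WT (adjusted p = 8.5e-05, 0.00041 and 0.00054) and −3.08, −2.56 and −1.65 in KO (adjusted p = 0.015, 0.0015 and 0.012). The KO calls were lost with the compared groups alone (adjusted p = 0.95 for Fos and Dusp1 and 0.15 for Per1). Between control times 3 of 13 were thus called in each genotype, where 0.428% of all genes were called in WT and 0.279% in KO. In KO at 1 h Pde4b was lower with mOSM than with the LIFR ligands (−3.05, adjusted p = 0.00047, 1 of 13 against 0.307%). The WT mOSM effect on Pde4b changed by −3.07 from 1 h to 6 h (adjusted p = 0.0064, 1 of 13 against 13%). It did not pass with the beadchip as a term (adjusted p = 0.065).

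The genes whose group means were most alike to each member over 16 groups, among those with a spread of means of at least 1 on the log2 scale (3388 or 3389 candidates), are given by Pearson's r as a description. For Slco2a1 they were Rap1gap2 (0.95, and 0.58 over the 48 arrays), P3h2 (0.94, 0.70) and Plat (0.94, 0.80). Those of Ptges were Snhg5 (0.90, and 0.36 over the 48 arrays), Tmem51 (0.90, 0.75) and Socs2 (0.88, 0.67). For Ptgis the 3 were Emilin2 (0.93, and 0.74 over the 48 arrays), Pisd-ps1 (0.91, 0.26) and Glis1 (0.90, 0.91). For Ptgs2, above background on 8 of 48 arrays, all at 1 h, they were Bhlhe40 (0.97, and 0.71 over the 48 arrays), Nfkbiz (0.96, 0.55) and Zfp36 (0.96, 0.58). Most Ptgs2 values were thus below background, so its r values do not measure a shared pattern. Groups share cultures and arrays share beadchips, so the 16 points are not independent. Between members r was 0.73 for Ptgis with Slco2a1, 0.59 for Ptges with Slco2a1, and 0.46 for Ptges with Ptgs2, the last under the same limit of Ptgs2.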

How the data were processed

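Gene expression was measured on Illumina bead arrays of 48 samples on 8 beadchips. The deposited signal file holds a linear intensity per probe and array, exported from BeadStudio by the authors per the submitters' processing notes, and not normalized. The detection p-value of each probe was likewise deposited. Normalized log2 values of the authors came in another table, with limma among the tools named, and lay within 0.0338 of the values used here. Here signals were background corrected and quantile normalized (limma neqc, offset 16). Probes with detection p under 0.01 on at least 3 arrays were kept (16799), and the brightest was used for each of 10739 genes. Genes were named from the supplied annotation. A model with 16 group means was fitted to all genes (limma 3.58.1, R 4.3.3), p-values adjusted by Benjamini and Hochberg per comparison over all genes, and an adjusted p under 0.05 passed. Where no array of a group was above background, a fold is a bound against the array's lowest signal above background. This main model held no culture, beadchip or thaw day term. The replicate number, which the correlations above tie to a culture, was fitted as a block in an alternative run only. The members and gene lists were chosen with earlier results of these data known. Named genes were the 7 members, Osmr, the genes called between control groups, and up to 4 listed genes per ligand comparison by size of change. The fit was tested on simulated data with independent noise on each array, which left out the correlation within cultures. For WT mOSM at 6 h it recovered 58% of planted changes of 1 log2 unit and 85% of those of 2. Of the genes called there, 7.14% were false. The precision is limited by 3 arrays per group, and the depth of bead arrays is their signal over background. Python 3.11.15 with matplotlib 3.10.9 and pandas 2.3.3 drew the plots. Alternatives for the values were the deposited log2 table, median scaling, no background correction, other detection filters, the mean of all detected probes, arrays raised to the floor, and other probes. Alternatives for the fit were culture and beadchip terms, the first thaw day alone, the compared groups alone, no KO culture 3 arrays, and leaving out each array.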

Additional observations from a re-analysis of the deposited data

Results flagged for a closer look

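A difference between groups set 3 results apart by the test of the difference itself. The mOSM effect on Slco2a1 at 6 h differed between KO and WT by −2.14 (limma adjusted p = 0.00012), and that on Ptges by −1.81 (adjusted p = 0.015). The Ptges call was lost without KO control 6 h replicate 1 (adjusted p = 0.052) and with the second probe (−1.25, adjusted p = 0.11). The mOSM effect on Slco2a1 in WT differed between 6 h and 1 h by 1.62 (adjusted p = 0.0022).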

How the results depend on the processing

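Of the counts of called members, taken over 14 families of the 32 comparisons, 10 did not move under any alternative run. Without the detection filter WT mOSM at 6 h called 3, Ptger4 included. KO against WT controls fell from 2 to 0 with the compared groups alone. The time change of the mOSM effect rose from 1 to 2 with the culture term (replicate block), with the first thaw day alone and without the KO culture 3 arrays, which was chosen after seeing the data, and was 1 to 2 on leaving out single arrays. Leaving out single arrays gave 1 to 2 for the genotype difference of ligand effects (1 without KO control 6 h replicate 1), and the culture term changed no other count of called members.

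The values whose sign turned had not passed, apart from Ppargc1a. Those of Ptgs2 rest largely on arrays below background, so neither their size nor their sign is a measurement. With the first thaw day alone Ptgs2 gave 0.59 for KO minus WT mOSM at 1 h, 0.014 for KO controls at 6 h minus 1 h (0.014 also without KO culture 3) and 0.14 for the time change of mOSM in WT, and Ptgis −0.017 for KO minus WT controls at 1 h (−0.074 without KO culture 3). With other probes Ptges gave 0.12 and 0.019 for KO minus WT mOSM at 1 h and hOSM at 6 h, and Slco2a1 0.084 and 0.038 for mLIF at 6 h in KO and for KO minus WT. With arrays raised to the floor Ppargc1a gave 0.093 for mOSM minus the LIFR ligands. On leaving out single arrays, Ptgs2 ran from −1.20 to 0.13 for KO minus WT mOSM at 1 h and from −0.97 to 0.36 for the time change in WT, and Ptges from −0.79 to 0.038 for the former. Ptgis ran from −0.73 to 0.13, −0.55 to 0.13 and −0.67 to 0.082 for KO mOSM, hOSM and mLIF at 6 h, from −0.074 to 0.51 for KO minus WT controls at 1 h, from −0.095 to 0.74 for KO controls over time and from −0.75 to 0.11 for the KO time change. The cause of these turns was not tested. Signal over background limits Ptgs2, Ptger2 and Ptger4.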
